A study of Mus musculus with 8 samples.

Results

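The Meis, Pbx and Pknox genes encode homeodomain proteins of the TALE class, which carry extra residues in a loop of the homeodomain and act as DNA-binding partners of Hox proteins. In wild-type and Hoxd4-transgenic rib chondrocytes of FVB mouse embryos, 8 genes of these families (Meis1, Meis2, Meis3, Pbx2, Pbx3, Pbx4, Pknox1 and Pknox2) were followed through every probe set that the platform annotation assigns to 1 of these symbols alone. This gave 20 probe sets of 45037. Of these, 18 probe sets of 7 genes were bright enough to be tested, with a mean signal over all 8 arrays above 105.88, the median of all probe sets. The other 2, both of Pbx4, were too dim and are described by their values.

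Pbx proteins bind DNA together with many Hox proteins and sharpen the choice of site. Meis and Pknox (also called Prep) proteins bind Pbx through their amino-terminal part and the same DNA through their own homeodomain, and Pbx partners bound in this way are held in the nucleus. In the mouse embryo these complexes take part in patterning the body axis, the hindbrain and the proximal limb, and Meis1 and Meis2 are induced by retinoic acid in several tissues.

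The arrays held total RNA of primary chondrocytes freed by collagenase and trypsin from rib cages of E18.5 embryos. Each of 4 litters was split by genotype and pooled, which gave 4 wild-type control pools and 4 Hoxd4-transgenic pools, 1 of each per litter, all FVB, on 8 one-colour arrays. The litters are named here by the replicate number, and an array by its group and litter. The sample titles give a replicate number and do not name the litter. That a control and a transgenic array with the same number share a litter is therefore an assumption of all comparisons within litters. Neither the number of embryos in a pool, nor their sex, nor the promoter of the transgene is given in the labels. A pool can differ in the share of cell types as well as in the RNA per cell, which cannot be told apart in bulk RNA.

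Median signals of the 8 arrays ran from 100.9 to 115.4 (MAS5 units), and the number of arrays limits the precision. All 12 chondrocyte markers looked up were in the tested set, with mean signals from 4435 (Sox9) to 51478 (Cnmd). Markers of other cell types were measured too: perichondrium and fibroblast genes reached 40219, muscle genes 8906, and the 5 endothelial markers 193 to 253. The erythroid gene Alas2 had 3861, while the erythroid globins Hba-a1 and Hbb-bh1 were too dim for the test, with means of 39.1 and 22.8. Signals of different probe sets give no order of level. Only 2 probe sets stood for the overexpressed gene, both annotated to Hoxd4 and Hoxd3 together. The brighter, with a mean of 128, was tested and had signals of 27.3, 42.6, 4.10 and 256 in controls of litters 1 to 4 and of 94.1, 415, 172 and 13.0 in transgenics (log2 fold change 0.88, 95% interval -0.54 to 2.29, exact permutation p = 0.40). The dimmer, below the limit for the test, had 31.3, 8.92, 17.8 and 48.0 in controls and 26.8, 11.4, 19.96 and 24.3 in transgenics (-0.12, 95% interval -0.64 to 0.41) and was higher in 2 of 4 litters. On both, the array labelled transgenic was the dimmer one in litter 4. Directions below rest on the labels.

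No Meis, Pbx or Pknox probe set differed between the genotypes at an adjusted p under 0.05 in limma, and 0 of all 22518 tested probe sets did (0%, lowest adjusted p 0.57). Of the 18 tested probe sets, 2 had an unadjusted p under 0.05, against 740 (3.29%) of all tested. They were a Pbx2 probe set that was higher in transgenic arrays, as 1.58% of all tested were at that p, and a Pbx3 probe set that was lower, as 1.71% of all were. The same 2 were the only tested members whose groups did not overlap, beside 2.27% of all tested. The lowest adjusted p among the members was 0.9997. Of the 18 estimates, 13 were above 0 and 5 below, with a median log2 fold change of 0.05, and 51.2% of all tested probe sets were above 0, with a median of 0.0029. For 17 of the 18 the 95% interval lay within a 1.5-fold change in either direction, as it did for 85.4% of all tested probe sets, and for all 18 it lay within a 2-fold change (98.7%). Fold changes are of log2(signal + 31.54), a scale that makes those of dim probe sets smaller.

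**Figure D1:**
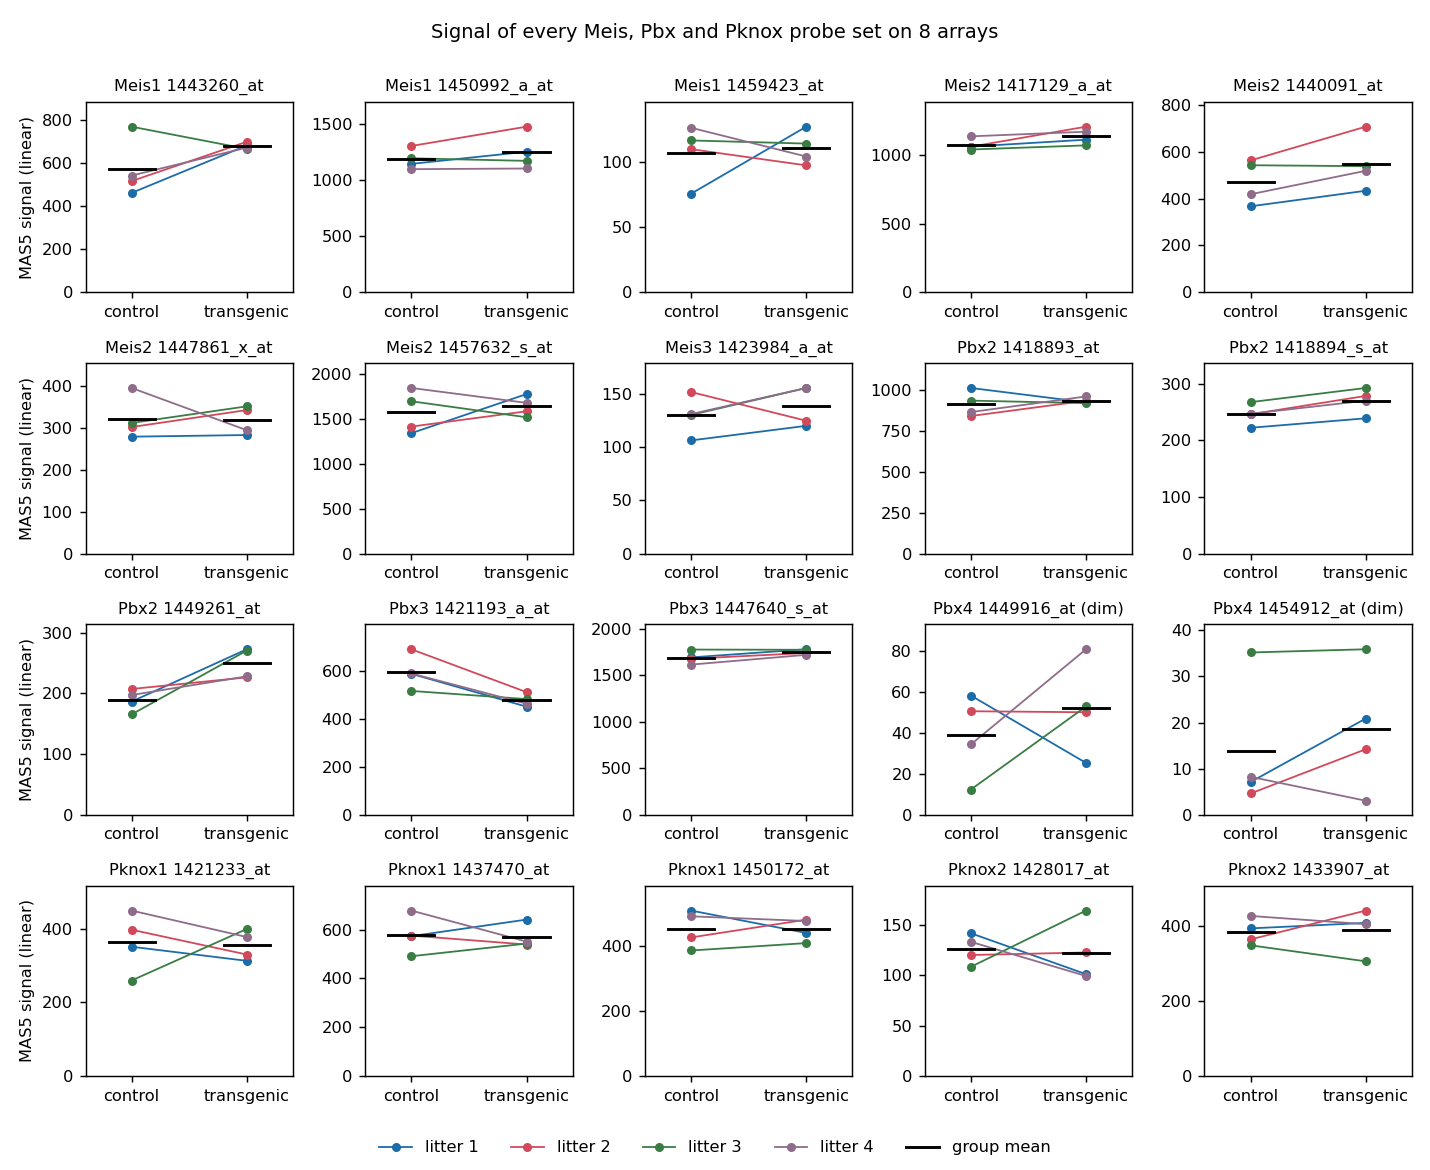
MAS5 signal (linear axis from 0) of each of the 20 probe sets in control and transgenic arrays; lines join the 2 arrays of a litter and black bars are group means. The control and transgenic points do not overlap for Pbx2 1449261_at and Pbx3 1421193_a_at, and they overlap for the other 18.

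The Pbx genes held both of the differences with a small unadjusted p. Pbx2, a broadly expressed Pbx protein, had 3 probe sets, all tested. Probe set 1449261_at had signals of 186, 207, 165 and 197 in the controls of litters 1 to 4 and of 273, 226, 270 and 228 in the transgenics. Every transgenic array was brighter than every control array, and the gap was widest in litters 1 and 3. The means were 189 ± 17.9 and 249 ± 25.6 (SD, n = 4 each), a log2 fold change of 0.35 (95% interval 0.05 to 0.64, adjusted p 1.00 in limma). The exact permutation p was 0.029, the smallest that 70 assignments of the labels can give, and groups that did not overlap with transgenic higher were found for 1.18% of all tested probe sets. Without litter 1 the estimate was 0.30 (95% interval -0.06 to 0.67), and without litter 3 it was 0.26 (95% interval -0.09 to 0.61). Without the transgenic array of litter 1 or 3, or the control array of litter 3, the interval also reached below 0 (-0.03, -0.02 and -0.02).

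The other Pbx2 probe sets showed smaller differences. The brightest, 1418893_at, had signals of 1012, 841, 935 and 865 in controls and 924, 934, 920 and 961 in transgenics of litters 1 to 4, with a log2 fold change of 0.04 (95% interval -0.15 to 0.22). The groups overlapped fully, with both the highest and the lowest signal among the controls. Probe set 1418894_s_at had signals of 223, 246, 268 and 247 in controls and 239, 279, 293 and 270.5 in transgenics. It was higher in the transgenic array of all 4 litters, by 0.09 to 0.16 within litters, although the groups overlapped (log2 fold change 0.12, 95% interval -0.15 to 0.39). Within arrays, 1449261_at moved against 1418893_at by 0.31 and against 1418894_s_at by 0.23 between the genotypes, each with an exact permutation p of 0.11 (adjusted p = 0.65 over the 17 pairs of tested probe sets of 1 gene).

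Because Pbx2 held the highest estimate, and Meis1 and Meis2 are the Meis genes with several tested probe sets, the 250 bases before their transcript starts are shown, from RefSeq on GRCm38.p6, with CCAAT boxes on either strand in capitals. They lie at chr11:19018970-19019219 (minus strand, Meis1), chr2:116064620-116064869 (minus strand, Meis2) and chr17:34592009-34592258 (plus strand, Pbx2).
Meis1: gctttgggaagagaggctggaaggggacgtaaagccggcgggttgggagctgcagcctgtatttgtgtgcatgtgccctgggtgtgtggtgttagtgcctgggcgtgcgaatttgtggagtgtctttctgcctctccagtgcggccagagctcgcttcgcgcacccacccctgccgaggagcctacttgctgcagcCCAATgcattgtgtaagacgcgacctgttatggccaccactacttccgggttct
Meis2: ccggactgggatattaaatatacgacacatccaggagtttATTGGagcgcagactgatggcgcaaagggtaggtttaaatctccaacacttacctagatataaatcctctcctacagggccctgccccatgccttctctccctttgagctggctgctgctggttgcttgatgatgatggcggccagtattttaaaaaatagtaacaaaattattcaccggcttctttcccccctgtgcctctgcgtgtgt
Pbx2: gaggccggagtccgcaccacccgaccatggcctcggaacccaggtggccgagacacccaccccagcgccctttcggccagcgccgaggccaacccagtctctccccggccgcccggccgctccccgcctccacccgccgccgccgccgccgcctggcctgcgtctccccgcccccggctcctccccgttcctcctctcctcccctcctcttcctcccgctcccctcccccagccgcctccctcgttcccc

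Of the 8 genes, 5 (Meis1, Meis2, Meis3, Pbx2 and Pbx4) matched the promoter table by symbol. None of their 5 upstream stretches held TGACAG, the core bound by Meis and Pknox, or TGATNNAT, a joint site of Pbx and Hox, on either strand. These letters were found in 15.9% and 7.68% of 32851 upstream stretches of the same length. A CCAAT box, the site of the factor NF-Y, was found 54 bases before the start in Meis1 and 210 bases before it in Meis2, and also in Pbx4 but not in Meis3 or Pbx2, against 33.8% of all stretches. The Pbx2 stretch was 77.6% G and C, a share reached by 2.35% of all stretches, whose median was 52.4%, while Meis1 had 59.6% and Meis2 47.6%. A match describes the letters only, and the arrays measured no binding.

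Pbx3, a Pbx protein needed in the mouse brainstem for breathing after birth, had 2 probe sets, which differed in sign. Probe set 1421193_a_at had signals of 586, 688, 515 and 588 in the controls of litters 1 to 4 and of 449.7, 510, 481 and 462 in the transgenics. All transgenic arrays were dimmer than all control arrays, though the lowest control and the highest transgenic, 515 and 510, nearly met. The means were 594 ± 71.2 and 476 ± 26.4 (SD, n = 4 each), a log2 fold change of -0.30 (95% interval -0.53 to -0.07, adjusted p 1.00 in limma). The difference within litters was -0.36, -0.41, -0.09 and -0.33, and the exact permutation p was again the smallest possible, 0.029, with groups that did not overlap and transgenic lower in 1.09% of all tested probe sets. Without the control array of litter 2, the brightest of the 8, the estimate was -0.23 (95% interval -0.46 to 0.01). Without litter 1 or litter 4 the interval also included 0, with upper limits of 0.004 and 0.003.

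The brighter Pbx3 probe set, 1447640_s_at, had signals of 1692, 1678, 1776 and 1614 in controls and of 1779, 1739, 1773 and 1719 in transgenics of litters 1 to 4. It was the steadiest member, with a coefficient of variation of 3.37% over the 8 arrays, and its log2 fold change was 0.05 (95% interval -0.09 to 0.20). Within arrays the difference between the 2 probe sets changed by -0.35 between the genotypes (exact permutation p = 0.057, adjusted p = 0.65 over the same pairs). An _a_at name marks probes shared by transcript variants of 1 gene and an _s_at name probes that can match several transcripts, so the pair need not read the same RNAs. The files do not say which exons either probe set targets.

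**Figure D2:**
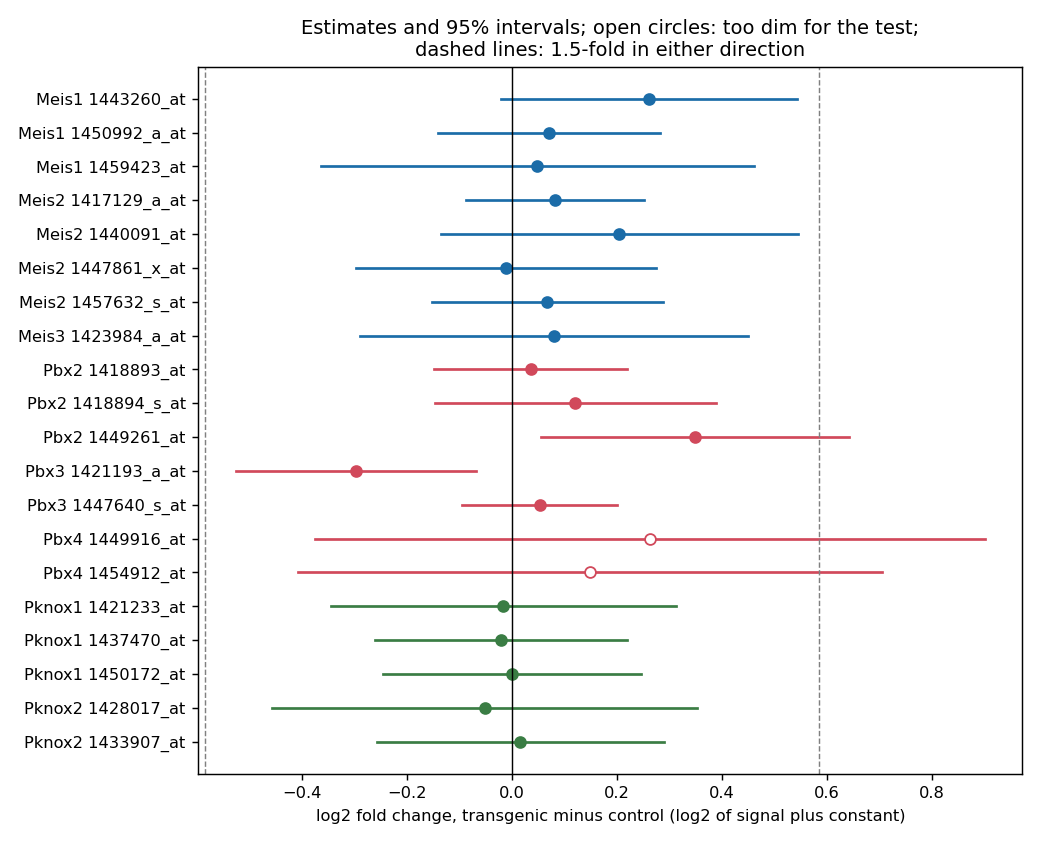
Log2 fold change of each probe set, transgenic minus control, with 95% intervals; filled circles were tested, open circles were too dim, and dashed lines mark 1.5-fold. Intervals of Pbx2 1449261_at (0.05 to 0.64) and Pbx3 1421193_a_at (-0.53 to -0.07) lie on 1 side of 0, and those of the other 18 include it.

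Beside these values, all 4 sex-linked genes found had an unadjusted p under 0.05 in limma. None of them passed an adjusted p of 0.05. Eif2s3y, a Y-linked translation factor, had a mean of 558 ± 177 in controls and 1054 ± 164 in transgenics (SD, n = 4 each), Uty and Kdm5d were also higher (log2 fold changes 0.86 and 0.75), and Xist was lower (-3.68). Xist had signals of 5778, 9945, 13760 and 8098 in controls of litters 1 to 4 and of 79.8, 3266, 47.2 and 8209 in transgenics. It was near background in the transgenic arrays of litters 1 and 3, the litters in which the Pbx2 1449261_at difference was widest and without which its interval included 0. In litter 2 Xist was also lower in the transgenic array, and the Pbx2 difference was the smallest, 0.11. In litter 4 Xist was not lower, and the Pbx2 difference was 0.18. The Pbx3 1421193_a_at difference was widest in litter 2 (-0.41) and smallest in litter 3 (-0.09). The summed signal of these 4 genes ranged from 7202 to 14516 in controls and from 2461 to 9928 in transgenics. This sum is mostly Xist, with a mean of 6148 against 439 to 806 for the others. It adds genes that moved in opposite directions, so it gives no share of either sex. Of the 5 endothelial markers 2 were higher and 3 lower. Among them 1, the junction cadherin Cdh5, had an unadjusted p under 0.05 in limma (log2 fold change -0.61), as had 3.29% of all tested probe sets. The summed signal of the 5 was 918 to 1289 in controls and 840 to 1176 in transgenics. The 3 osteoblast markers found were all lower, and 1, the phosphatase Alpl, had an unadjusted p under 0.05 in limma too (-0.31). Their summed signals were 1909 to 2381 in controls and 1653 to 2071 in transgenics. In the other lists no tested marker had an unadjusted p under 0.05 in limma. There 10 of 12 chondrocyte, 6 of 7 perichondrium and fibroblast and 5 of 6 skeletal muscle markers were higher, beside 51.2% of all tested probe sets. All 3 tested macrophage markers and the erythroid gene Alas2 were lower, and the glial gene Sox10 was higher. The part of all these genes in the Pbx2 and Pbx3 values was not tested.

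Pbx4, a Pbx gene best known from the testis, stayed dim on all arrays. Probe set 1449916_at had signals of 58.4, 50.7, 12.4 and 34.4 in controls and of 25.4, 50.2, 53.0 and 81.1 in transgenics of litters 1 to 4. Probe set 1454912_at had 7.11, 4.62, 35.2 and 8.23 in controls and 20.9, 14.2, 35.9 and 3.05 in transgenics. Neither separated the groups, with log2 fold changes of 0.26 (95% interval -0.38 to 0.90) and 0.15 (95% interval -0.41 to 0.70) and exact permutation p values of 0.46 and 0.63. At such signals the added constant weighs most and MAS5 values are noisy, so the files give no firm level for this gene.

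Meis1, a Meis protein known for its role in blood stem cells and the proximal limb, had 3 tested probe sets, all with estimates above 0. Probe set 1443260_at had signals of 461, 516, 769 and 542 in the controls of litters 1 to 4 and of 682, 699, 666 and 672 in the transgenics. The transgenic arrays lay close together, from 666 to 699, while the controls spread widely and the control of litter 3 was the brightest of all 8. The means were 572 ± 136 and 680 ± 14.5 (SD, n = 4 each), a log2 fold change of 0.26 (95% interval -0.02 to 0.54, adjusted p 1.00 in limma). The difference was positive in litters 1, 2 and 4, at 0.53, 0.42 and 0.29, and -0.20 in litter 3. Without the control array of litter 3 the estimate was 0.40 (95% interval 0.18 to 0.63, adjusted p 1.00 in limma), and without that of litter 1, 0.17.

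The brighter Meis1 probe set, 1450992_a_at, had signals of 1144, 1304, 1194 and 1097 in controls and 1252, 1476, 1171 and 1103 in transgenics of litters 1 to 4. Both arrays of litter 2 were the highest of their group, and the genotypes overlapped (log2 fold change 0.07, 95% interval -0.14 to 0.28). Probe set 1459423_at, just above the brightness limit with a mean of 109, gave 0.05 (95% interval -0.36 to 0.46) and signals from 75.9 to 128. Its only litter with a higher transgenic array was litter 1, at 0.57.

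Meis2, the Meis protein of limb, heart and face development, had 4 tested probe sets. Probe set 1417129_a_at had signals of 1061, 1060, 1040 and 1135 in controls and 1111, 1206, 1070 and 1169 in transgenics of litters 1 to 4. The transgenic array was the brighter in all 4 litters, by 0.04 to 0.18 within litters, but the groups overlapped (log2 fold change 0.08, 95% interval -0.09 to 0.25). The probe set 1440091_at had 367, 563, 542 and 418 in controls and 433, 707, 538 and 518 in transgenics. Here litters differed more than genotypes: both arrays of litter 1 were the lowest of their group and both of litter 2 the highest, and the log2 fold change was 0.20 (95% interval -0.14 to 0.54). It was 0.08 without the transgenic array of litter 2, 0.10 without the control array of litter 1 and 0.30 without the transgenic array of litter 1.

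The remaining Meis2 probe sets gave no uniform direction. The brightest, 1457632_s_at, ranged from 1342 to 1846 in controls and from 1519 to 1778 in transgenics (log2 fold change 0.07, 95% interval -0.15 to 0.29), higher in the transgenic arrays of litters 1 and 2 and lower in those of litters 3 and 4. Probe set 1447861_x_at, of a kind that can bind unrelated transcripts, ranged from 279 to 395 in controls and from 283 to 351 in transgenics (-0.01, 95% interval -0.30 to 0.27). Meis3, the remaining Meis gene, had 1 probe set near the brightness limit, with 107, 152, 131 and 131.5 in controls and 120, 125, 156 and 156 in transgenics of litters 1 to 4 (0.08, 95% interval -0.29 to 0.45). It was higher in the transgenic array of 3 litters and lower in litter 2. The 8 probe sets of the 3 Meis genes had 7 estimates above 0, as had 51.2% of all tested probe sets, and a median of 0.08. Probe sets of 1 gene are not separate genes, and none of the 8 had an unadjusted p under 0.05 in the main limma fit.

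Pknox1 (Prep1), a Pbx partner needed for early embryonic survival in the mouse, had 3 tested probe sets with log2 fold changes between -0.02 and 0.00. Probe set 1437470_at had signals of 573, 576, 491 and 678 in controls and 641, 539, 543 and 551 in transgenics of litters 1 to 4. Probe set 1450172_at had 509, 427, 386 and 491 in controls and 440, 481, 409 and 477 in transgenics. Probe set 1421233_at had 351, 397, 260 and 449.5 in controls and 313, 330, 400 and 378 in transgenics. On all 3 the control array of litter 3 was the lowest of the 8, and each control group spread more widely than its transgenic group, around nearly equal means (580 ± 76.6 against 569 ± 48.7, SD, n = 4 each, for 1437470_at). The 95% intervals ran from -0.26 to 0.22, from -0.25 to 0.25 and from -0.34 to 0.31 in the order given.

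Pknox2 (Prep2), its relative with a narrower expression, had 2 tested probe sets. The brighter, 1433907_at, had signals of 393, 364, 348 and 427 in controls and 408, 441, 306 and 405 in transgenics of litters 1 to 4 (log2 fold change 0.02, 95% interval -0.26 to 0.29). Both arrays of litter 3 were the lowest of their group. The dimmer, 1428017_at, ranged from 109 to 142 in controls and from 99.5 to 165 in transgenics (-0.05, 95% interval -0.46 to 0.35), and its highest value was the transgenic array of litter 3. The Pknox genes thus had 2 of 5 estimates above 0, beside 51.2% of all tested probe sets, and a median of -0.02.

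**Figure D3:**
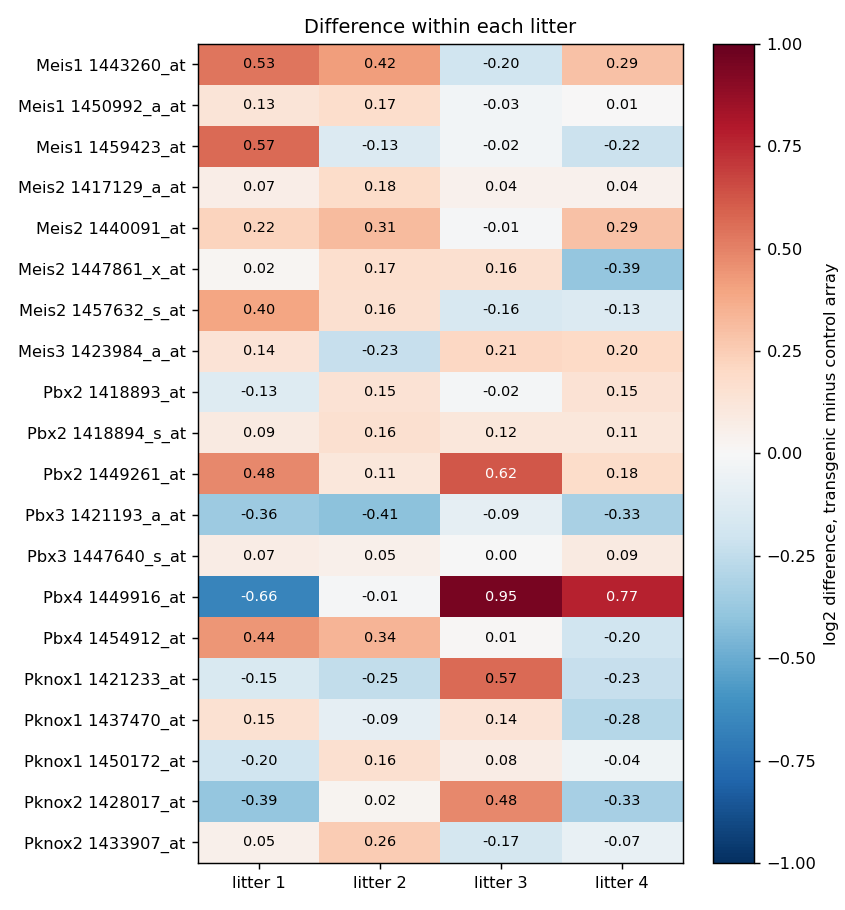
Log2 difference between the transgenic and the control array of each litter for the 20 probe sets, with each value printed (red higher, blue lower in the transgenic array). Pbx2 1449261_at, Pbx2 1418894_s_at and Meis2 1417129_a_at are positive in all 4 litters, and Pbx3 1421193_a_at is negative in all 4.

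Within litters, 3 of the 18 tested probe sets were higher in the transgenic array of all 4 litters, as were 6.83% of all tested, and 1 was lower in all 4, as were 6.6% of all. With the litter as a block in limma, the unadjusted p was under 0.05 for 3 of 18, Meis1 1443260_at being added (95% interval 0.00 to 0.52), against 1248 of all tested (5.54%), and the lowest adjusted p among members was 0.84. The litters themselves were compared next, as an F test of 4 litters with the genotype in the fit. No member passed an adjusted p of 0.05 in limma (0 of 18), where 109 of all tested did (0.484%), and 2 of 18 had an unadjusted p under 0.05 against 14.6% of all tested. These were Meis2 1440091_at (adjusted p 0.16 in limma) and Meis1 1450992_a_at (adjusted p 0.34), and both had litter 2 as the highest, with means of 635 and 1390 over its 2 arrays. A litter here stands for the dam and for any handling that its 2 pools shared.

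Signals of the members varied over the 8 arrays by a coefficient of variation of 3.37% to 20.7%, with a median of 12.0% against 13.0% for all tested probe sets. Probe sets of 1 gene did not follow each other closely from array to array. Over the 8 arrays, Pearson correlations between probe sets of 1 gene ran from -0.71 for the Pbx3 pair to 0.57 for Pknox1 1421233_at and 1437470_at, given as descriptions of arrays that share litters. The 3 Pknox1 pairs lay between 0.44 and 0.57. Between the brightest tested probe sets of the 7 genes, the 21 correlations ran from -0.58 (Pbx3 and Pknox1) to 0.48 (Pknox1 and Pknox2), with a median of -0.13.

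The genes whose brightest tested probe set ran most like that of a member over the 8 arrays were picked from 11006 genes by the highest Pearson correlation, so high values are fixed by the choice. They were Dgat1 (0.98) and Tnks (0.96) for Meis1, Polrmt (0.96) and Nup153 (0.95) for Meis2, and Ldb3 (0.97) and Ogn (0.96) for Meis3. For Pbx2 they were Cnmd, the cartilage protein chondromodulin (0.97), and P4hb (0.95), and for Pbx3 Rexo1 (0.96) and Pagr1a (0.94). For Pknox1 they were Pask (0.96) and Zfp407 (0.96), and for Pknox2 Tspan17 and Mfsd4b4 (0.94 each). No gene was picked for more than 1 member.

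The partners of these proteins were followed in 5 lists, with the brightest tested probe set of each gene, and no gene of them passed an adjusted p of 0.05 in limma. Of 15 tested Hox genes, the partners of Pbx and Meis, 6 were higher and 9 lower with a median of -0.03. The only one with a limma p below 0.05 before adjustment was Hoxa7, at 346 ± 24.2 in controls and 424 ± 55.1 in transgenics (SD, n = 4 each, log2 fold change 0.26, 95% interval 0.01 to 0.52), higher in all 4 litters. Of 5 other TALE genes 2 were higher and 3 lower, with a median of -0.01, and the smallest p values belonged to the Iroquois genes Irx3 (0.17, 95% interval -0.13 to 0.47) and Irx5 (-0.17, 95% interval -0.50 to 0.17). All 12 tested coregulators lay between -0.11 and 0.09, 8 higher and 4 lower, with a median of 0.03. The smallest p values there were those of Crtc3, a CREB coactivator (-0.11), and Kmt2a, a histone methyltransferase (-0.09).

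In the retinoic acid list 4 of 11 tested genes were higher and 7 lower, with a median of -0.06. One had an unadjusted p under 0.05 in limma: Crabp1, which binds retinoic acid in the cytoplasm, had signals of 279 ± 45.8 in controls and 202 ± 40.7 in transgenics (SD, n = 4 each, log2 fold change -0.41, 95% interval -0.76 to -0.06), lower in all 4 litters. Of 4 tested genes reported as targets in other tissues 3 were higher, with a median of 0.07, and the smallest p values belonged to Snai1, a repressor of epithelial genes (0.26, 95% interval -0.05 to 0.57), and Hif1a, the hypoxia-inducible factor (0.09, 95% interval -0.04 to 0.22). The shares with an unadjusted p under 0.05 were 1 of 15 Hox and 1 of 11 retinoic acid genes, and 0 of 5, 12 and 4 in the others, beside 3.29% of all tested probe sets.

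**Figure D4:**
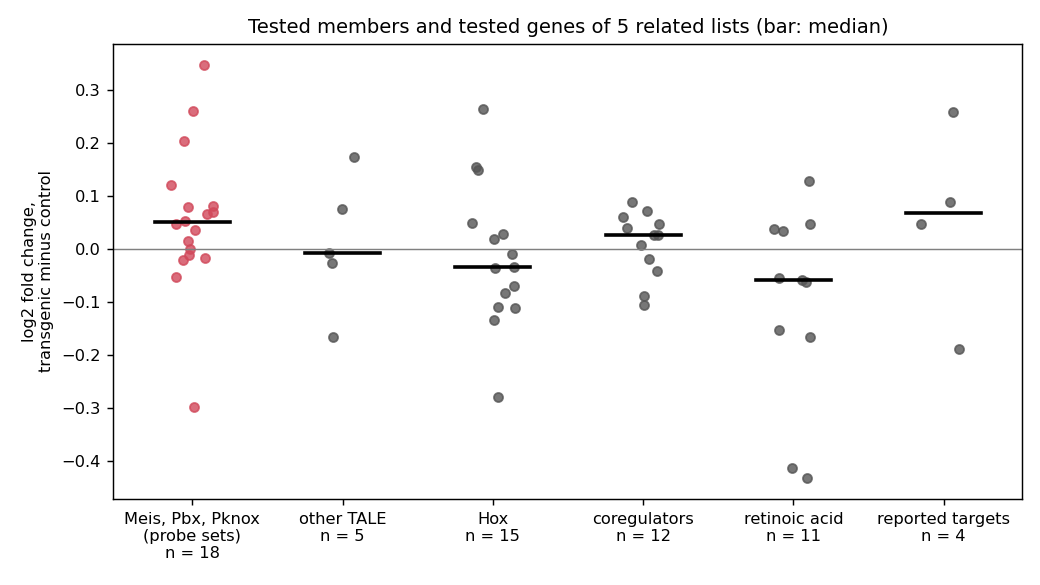
Log2 fold change, transgenic minus control, of the 18 tested Meis, Pbx and Pknox probe sets (red) and of the tested genes of 5 related lists (grey, 1 probe set per gene); bars are medians. The medians lie between -0.06 and 0.07, and points of the member set reach from -0.30 to 0.35.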

How the data were processed

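Total RNA of each of 8 pools was labelled with biotin and read on 1 Affymetrix array. The authors deposited a linear intensity for each probe set, computed with MAS5 per the submitters' processing notes, and neither detection calls nor scanner settings were used here. The mean of each array without its top and bottom 2% was 500. Probe sets were named through GEO's platform annotation (34945 with 1 symbol, 932 with several, 9160 unnamed), with symbols looked up by gene identifier in RefSeq (0 changed). The 64 control probe sets were left out and no further normalization was applied.

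Signals were turned to log2(signal + 31.54), the constant being the middle of the arrays' 25th percentiles. Probe sets with a mean above the median were fitted by lmFit and moderated by eBayes, with a trend on intensity (limma 3.58.1, R 4.3.3), with 1 coefficient for genotype and Benjamini-Hochberg adjustment over all 22518. Values of dim probe sets come from the same fit without that filter. Single values were tested by exact two-sided permutation over 70 assignments, which ignore the litters. Pools of a group come from separate litters. Comparison of probe sets of 1 gene within arrays was added after their values were seen. The replicate number in a title was taken to mark the litter, so arrays with the same number were treated as paired. Deviations from the group mean correlated by 0.28, 0.17, 0.04 and 0.14 between same-litter arrays. The mean between litters was -0.05. It is tied to those values because each group was centred on its own mean, so it is no separate comparison. The chosen fit has no block, and the fit with it is given beside it. The fit without a block and the litter F test were first checked on artificial data with known differences. The genotype fit with the block was not checked in this way. Figures used matplotlib 3.10.9.

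The members and lists were chosen with earlier results of these data known. The named genes are all members, for each member the 2 genes most correlated with it, and in each list up to 4 genes with an unadjusted p under 0.05 or otherwise the 2 with the smallest p.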

Additional observations from a re-analysis of the deposited data

Results flagged for a closer look

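Over the 20 probe sets and both groups, 40 groups of 4 signals were examined for a sample far from the others, and chance flags about 1 in 20. The control array of litter 3 stood apart for Pbx4 1454912_at, with a signal of 35.2 where the other controls had 4.62 to 8.23. The transgenic array of litter 3 had a like signal of 35.9. The transgenic array of litter 1 stood apart for Pknox1 1437470_at, with 641 where the others had 539 to 551.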

How the results depend on the processing

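Over 22 alternatives no member was called (lowest adjusted p 0.84) and the median of the tested members stayed between 0.04 and 0.08. With the litter as a replicate block, fixed or random, 0 of all tested probe sets and 0 members were called in limma, and the unadjusted count over all tested rose from 740 to 1248 with the fixed block. Leaving out single arrays or litters gave 0 to 2 calls over all tested probe sets, the highest without litter 4, and 0 to 2 members with an unadjusted p under 0.05, the lowest without litter 1. The count of probe sets that differed between litters was 109, 30 with no filter, 0 with no intensity trend (2568 at an unadjusted p under 0.05) and 10 to 286 with arrays or litters left out, while 0 members were called in each. Of the 18 tested members, 8 kept their sign under all alternatives, among them Pbx2 1449261_at (0.26 to 0.43), Pbx3 1421193_a_at (-0.37 to -0.23) and Meis1 1443260_at (0.17 to 0.41), and 10 changed sign under at least 1. None of the 392 alternative values moved by more than the spread between replicates. The cause of these differences was not tested.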
